A study of Rattus norvegicus with 36 samples.

Results

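Cells make cholesterol from acetyl-CoA through the mevalonate pathway, and the enzymes of this pathway are switched on together when the sterol content of the endoplasmic reticulum falls. The transcription factor SREBP-2 is then released from its membrane anchor and binds the promoters of these genes, while INSIG proteins hold it back when sterols are plentiful. Squamous epithelium, which covers the skin and lines the oesophagus, is known for high synthesis of cholesterol for its barrier lipids, and thyroid tissue uses the pathway for its membranes and for the isoprenoid side products.

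The genes described here are 8 members of this pathway, of 15154 genes that the arrays name. *Hmgcs1*, *Idi1* and *Fdps* code for enzymes of the early, isoprenoid-forming steps, *Sqle*, *Cyp51* and *Dhcr7* for enzymes of the later, sterol-forming steps, *Srebf2* for SREBP-2 and *Insig1* for its sterol-dependent retention factor. Members were taken by name: all probes that are not controls and whose accession belongs to 1 of the 8 genes were used, which gave 9 of the 30367 probes on the array. *Fdps* had 2 probes and every other gene 1. All 9 probes lay well above background on all 36 arrays, so no member was lost to a filter on low values.

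Gene expression was measured in thyroid tissue from 36 male Sprague Dawley rats, 24 h after an intravenous injection in the tail vein, with 1 one-colour array and no pooling of animals. Of the 9 groups of 4 rats, 8 had received activities of 9, 88, 170 and 260 kBq or of 340, 760, 1300 and 4700 kBq of iodine-131, a beta emitter that thyroid follicular cells take up, and the controls were mock-treated with 0 kBq. All rats ate standard chow. The groups were injected in the order of the activity, and the controls came last, after the 4700 kBq group, so that activity and place in the order cannot be told apart among the irradiated groups. A level below is the log2 processed signal of a probe minus the 75th percentile of its array, and a log2 ratio is the difference of such levels between group means. Levels of different probes cannot be set against each other.

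The dissected tissue differed widely between arrays, which touches every result below. The mean level over 15 markers of thyroid follicular cells was between 0.79 and 2.31 on 18 arrays and between -5.51 and -1.23 on the other 18. The iodide transporter gene *Slc5a5* was well above background on 26 arrays and *Slc26a7* on 19. The mean over 6 markers of squamous epithelium (keratins and other genes of stratified epithelium) was between 2.97 and 5.01 on 11 of the arrays with a low follicular list, and both lists were low on the remaining 7. The limits were a list mean above 0 for follicle-rich and above 2 for squamous-rich arrays. These 3 sets of arrays were formed after the values had been seen, are not groups of the study and were not tested against each other. The 11 squamous-rich arrays were 2 each at 9, 260, 340 and 760 kBq and 1 each at 88 kBq, at 170 kBq and in the controls, with 0 at 1300 and 4700 kBq. In such bulk tissue, fewer cells of a type and less RNA per cell cannot be told apart.

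Promoter sequences are shown for 4 members because the genes differ in how they moved together. *Hmgcs1* and *Fdps* varied with each other, *Idi1* in part, and *Insig1* did not. Each line gives the 250 bases before the RefSeq start (build GRCr8), 5′ to 3′ in the direction of the gene. Capitals mark matches, on either strand, to the CCAAT box (CCAAT, or ATTGG on the other strand), the GC box (GGGCGG, or CCGCCC) and the E-box (CACGTG). *Hmgcs1* lies on the plus strand at chr2:53382054-53382303, *Fdps* on the minus strand at chr2:176804817-176805066, *Idi1* on the minus strand at chr17:66547525-66547774 and *Insig1* on the minus strand at chr4:8057770-8058019.
Hmgcs1: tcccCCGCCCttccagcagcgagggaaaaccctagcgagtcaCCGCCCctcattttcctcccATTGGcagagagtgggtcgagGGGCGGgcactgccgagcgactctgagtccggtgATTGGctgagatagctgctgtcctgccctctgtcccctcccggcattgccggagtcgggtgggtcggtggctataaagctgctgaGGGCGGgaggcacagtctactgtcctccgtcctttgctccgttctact
Fdps: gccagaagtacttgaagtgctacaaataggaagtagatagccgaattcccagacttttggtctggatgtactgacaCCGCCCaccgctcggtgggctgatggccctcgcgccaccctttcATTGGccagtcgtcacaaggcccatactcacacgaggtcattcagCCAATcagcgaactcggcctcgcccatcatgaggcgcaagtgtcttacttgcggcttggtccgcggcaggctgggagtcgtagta
Idi1: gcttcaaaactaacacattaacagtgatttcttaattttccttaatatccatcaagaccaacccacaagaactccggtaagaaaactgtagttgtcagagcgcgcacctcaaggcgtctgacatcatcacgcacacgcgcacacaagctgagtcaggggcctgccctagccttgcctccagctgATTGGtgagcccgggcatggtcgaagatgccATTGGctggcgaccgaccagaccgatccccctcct
Insig1: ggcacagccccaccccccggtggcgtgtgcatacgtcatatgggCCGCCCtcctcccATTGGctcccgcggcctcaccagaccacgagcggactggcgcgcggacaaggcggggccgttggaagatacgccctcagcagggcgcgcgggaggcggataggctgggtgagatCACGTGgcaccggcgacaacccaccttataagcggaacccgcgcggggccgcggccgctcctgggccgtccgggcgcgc

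RefSeq's table held a promoter for 7 of the 8 members and none for *Sqle*. In windows of 250 bases before and 50 after the start, the CCAAT box was found in 5 of the 7 (*Hmgcs1*, *Idi1*, *Insig1*, *Fdps* and *Srebf2*), and in 37.5% of all 33469 promoters. The GC box was found in 6 of the 7, all but *Idi1*, and in 33.1% of all. The sterol regulatory element searched, TCACNCCAC, was found in 0 of the 7 and in 1.12% of all, and the E-box in *Insig1* alone and in 6.42% of all. The 4 motifs do not overlap in the sequences shown. A match to such short letters is a description of the window and not a bound site. Likewise, no match to the letters searched does not show that a promoter lacks a sterol regulatory element, since sites with other letters were not searched.

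The first question was whether any member was regulated by the irradiation. In the limma fit over all 36 arrays, 0 of the 9 member probes were regulated in any of the 8 groups (adjusted p under 0.01, with a change of 1.5-fold or more either way), and 0% of all 30367 probes were. At 9 kBq the median log2 ratio of the 8 genes was 0.79, against 0.07 for all probes, and 7 of the 8 were higher than in the controls. At 4700 kBq the median was -0.29, against 0.09 for all probes, and 7 of the 8 were lower. The SD between rats of a group was 0.99 for *Hmgcs1*, 2.01 for *Sqle* and 1.08 for *Dhcr7* on the log2 scale, against a median of 0.67 over all probes. All groups are compared with the same 4 controls, so the 8 comparisons are not independent.

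*Dhcr7*, whose enzyme catalyses a final reduction to cholesterol, had the lowest unadjusted p-value. Its levels in the 4 controls were -1.32, -1.84, -0.77 and -2.29. At 9 kBq they were -0.03, -0.99, 0.84 and 0.72, and 3 of the 4 rats lay above all controls. At 4700 kBq they were -2.28, -2.67, -2.61 and -3.13, and 3 of the 4 lay below all controls, so the groups overlapped by 1 rat in both cases. The log2 ratio was 1.69 ± 0.74 (SE, n = 4) at 9 kBq, with an unadjusted p of 0.0305 and an adjusted p of 0.999 in limma, and an exact permutation p of 0.0571, where 0.0286 is the smallest that 4 against 4 rats can give. At 4700 kBq it was -1.12 ± 0.74, with an unadjusted p of 0.142 in limma and an exact permutation p of 0.0571. The difference at 9 kBq was the only one of 72 comparisons of member probes with an unadjusted p under 0.05, where 3.22% of all probes passed that limit at 9 kBq and 2.77% passed it as higher. Without rat 3 or rat 4 of the 9 kBq group or without control rat 2, 0 of the 72 passed, and without rat 2 of the 9 kBq group 6 did. The number was 4 without control rat 3, 3 without rat 1 of the 9 kBq, rat 2 of the 88 kBq or rat 4 of the 170 kBq group, and 2 without rat 2 of the 760 kBq or rat 3 or 4 of the 1300 kBq group. In the moderated F test over all 8 groups, *Dhcr7* was the only one of the 9 probes with an unadjusted p under 0.05 (0.0441, adjusted 0.989), against 2.69% of all probes. Within the arrays scanned on the first day, the log2 ratio of *Dhcr7* was 1.56 at 9 kBq (2 rats against 3 controls) and -1.24 at 4700 kBq (2 rats against 3), and within the second day 1.66 and -1.15 (2 rats against 1 control each).

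In the groups between, *Dhcr7* levels were spread over the whole range. They were -1.38, 0.64, -1.96 and -1.69 at 88 kBq, and -1.41, -2.70, -2.04 and 0.99 at 170 kBq. At 260 kBq they were -1.67, -2.94, 0.15 and -1.04, and at 340 kBq -0.10, -1.89, -0.27 and -0.97. In each of these groups, the rat or rats with the highest level had a squamous-rich array. At 760 kBq the levels were 0.02, 0.60, -2.12 and -2.90, and at 1300 kBq -2.83, -1.97, -1.98 and -2.08, where no array was squamous-rich and rat 1 lay below the other 3.

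*Hmgcs1*, whose enzyme makes HMG-CoA early in the pathway, had levels of 2.42, 1.77, 2.97 and 1.54 in the controls. They were 3.29, 1.15, 4.27 and 4.15 at 9 kBq and 1.63, 1.24, 2.56 and 1.64 at 4700 kBq. Of the 9 kBq rats, 3 lay above all controls and the remaining one below them all, and the 4700 kBq rats overlapped with the controls. The levels were 1.98, 3.90, 1.78 and 1.75 at 88 kBq, 2.33, 1.69, 2.62 and 4.23 at 170 kBq, and 1.84, 1.67, 3.82 and 3.18 at 260 kBq. They were 3.73, 2.62, 3.61 and 2.49 at 340 kBq, 3.97, 4.01, 1.72 and 1.32 at 760 kBq, and 2.63, 2.43, 2.34 and 1.73 at 1300 kBq. The 9 highest levels, from 3.61 to 4.27, all came from squamous-rich arrays. The log2 ratio was 1.04 ± 0.68 at 9 kBq (adjusted p 0.999 in limma) and 0.94 ± 0.68 at 340 kBq (adjusted p 0.544 in limma).

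*Sqle*, which codes for squalene epoxidase, a rate-limiting enzyme of the sterol-forming steps, differed most between rats, over a range of 6.23 on the log2 scale. The controls were at 3.11, 2.14, 0.45 and 3.25. The rats at 9 kBq were at -1.31, 2.36, 2.36 and 1.97, and those at 1300 kBq at -2.42, -2.78, 2.78 and 2.69. At 1300 kBq 2 rats lay far below all controls and the other two among them, which gave the lowest log2 ratio of the gene, -2.17 ± 1.37, with an adjusted p of 0.840 in limma. In the remaining groups, the lowest, median and highest levels were -0.55, 2.28 and 3.39 at 88 kBq, -1.79, 2.18 and 2.84 at 170 kBq, and 0.05, 2.03 and 3.34 at 260 kBq. They were -1.83, 1.24 and 2.62 at 340 kBq, 1.83, 2.58 and 3.38 at 760 kBq, and -2.57, 2.69 and 3.45 at 4700 kBq. All 7 levels below 0 came from the 7 arrays on which the follicular and the squamous list were both low.

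None of the other 5 genes passed the test either. *Insig1* had levels of 0.72, -0.12, -0.17 and -0.00 in the controls and 1.62, 0.43, -0.04 and 0.07 at 9 kBq, so the groups overlapped, and its log2 ratio there was 0.41 ± 0.41. *Idi1*, which isomerizes the isoprenoid building block, had a log2 ratio of 0.73 ± 0.50 at 9 kBq, *Fdps*, which makes farnesyl diphosphate, of 0.85 ± 0.49, *Cyp51*, the lanosterol demethylase, of 1.27 ± 0.64, and *Srebf2* of 0.56 ± 0.29. The second *Fdps* probe gave 0.87 ± 0.53. None of these passed an unadjusted p of 0.05, and the adjusted p was 0.999 for each in limma. In the 7 groups above 9 kBq, 0 of the 9 member probes had an unadjusted p under 0.05 in limma. Of all probes, 3.36% had one at 88 kBq, 2.36% at 170 kBq, 1.12% at 260 kBq, 13.7% at 340 kBq, 1.64% at 760 kBq, 4.18% at 1300 kBq and 1.66% at 4700 kBq. The mean of *Sqle* was below that of the controls in all groups but 760 kBq.

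**Figure D1:**
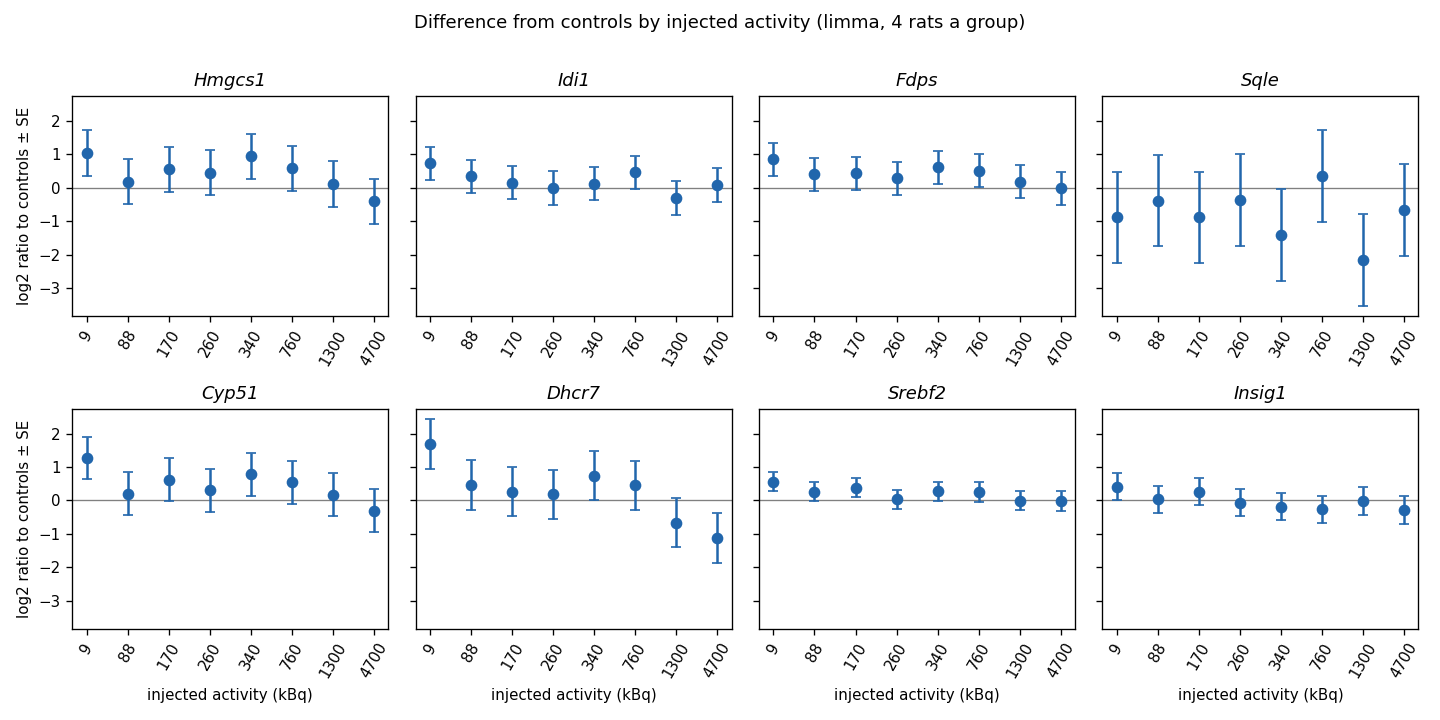
Log2 ratio of each member to the 4 controls (y axis) against the injected activity in kBq (x axis, categories in rising order), with the SE of the limma fit as bars and 4 rats a group. The ratios of *Dhcr7* run from 1.69 at 9 kBq to -1.12 at 4700 kBq, and *Sqle* has the widest bars, with an SE of 1.37.

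When the mean levels of 5 tissue marker lists (follicular cells, squamous epithelium, adipose tissue, slow muscle and Schwann cells) were added to the fit as covariates, a choice made after the values had been seen, 3 of the 9 member probes had an unadjusted p under 0.05 at 9 kBq, against 11.9% of all probes. *Dhcr7* then had a log2 ratio of 1.30 (unadjusted p 0.00138, adjusted 0.242), *Insig1* of 0.90 (0.00984, adjusted 0.315) and *Idi1* of 0.65 (0.0446, adjusted 0.409), all in limma. The ratio of *Hmgcs1* at 9 kBq was 0.24 in that fit, against 1.04 without the lists, and that of *Dhcr7* at 4700 kBq was -0.05, against -1.12.

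The second question was the order of injection. Over the 9 group means, the slope on the place in the order was negative for all members but *Sqle*, and 6 of the 9 probes had an unadjusted p under 0.05 in the limma fit (*Hmgcs1*, both *Fdps* probes, *Cyp51*, *Dhcr7* and *Srebf2*), all with a negative slope, while 10% of all probes passed that limit and 6.16% did so with a negative slope. None passed after adjustment, with adjusted p-values between 0.421 and 0.974 in limma, and 0.0132% of all probes did. The slope of *Dhcr7* was -0.22 ± 0.066 per place (SE, unadjusted p 0.00912 in limma). Its group means were 0.13, -1.10, -1.29, -1.38, -0.81, -1.10, -2.22, -2.67 and -1.55 from the first to the last group, so the lowest mean was that of the 4700 kBq group and the controls, though injected last, lay higher. The Pearson correlation with the place was -0.74 (exact permutation p 0.0193, over 362880 orders of 9 means) and the Spearman correlation -0.77 (exact p 0.0214). The slope of *Srebf2* was -0.060 ± 0.021, with r = -0.82 (exact permutation p 0.00861) and rho = -0.83 (exact p 0.00827). That of *Fdps* was -0.082 ± 0.026, with r = -0.79 (exact p 0.0113) and rho = -0.72 (exact p 0.0369). Without the first and the last group, r was -0.72 for *Dhcr7*, -0.67 for *Srebf2* and -0.56 for *Fdps*. These exact p-values are for single probes, 9 of which were computed, and are not adjusted. The 6 probes with an unadjusted p under 0.05 in limma are not independent. Both *Fdps* probes are among them, and their genes varied together between rats of a group, as described below.

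*Sqle* had no such trend: its slope was 0.015 ± 0.092 per place (unadjusted p 0.875 in limma). For *Insig1* and *Idi1* the slopes were -0.057 ± 0.026 and -0.069 ± 0.032, with unadjusted p-values of 0.0574 and 0.0582 in limma. The trend rested in part on the first and the last group. Without them, only *Dhcr7* had an unadjusted p under 0.05 over the remaining 7 group means (slope -0.23, p 0.0321 in limma), against 3.80% of all probes. When the groups were ranked by injected activity instead, with the controls first, 2 of the 9 probes passed (*Dhcr7*, p 0.0387, and *Insig1*, p 0.0491, both in limma), against 7.71% of all probes. Leaving out rat 2 of the 88 kBq group brought the number of probes with an unadjusted p under 0.05 from 6 to 1, and leaving out rat 4 of the 170 kBq group brought it to 2.

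The tissue markers differed along the order too. The mean squamous list had a slope of -0.36 per place, from 0.33 in the first group to -4.90 at 4700 kBq and -2.25 in the controls, and the mean follicular list one of 0.29 per place, from -3.22 to 0.38 and 0.31. With the 5 tissue lists as covariates, 2 of the 9 probes had an unadjusted p under 0.05 against the order (*Insig1*, slope -0.092, p 0.00598, and *Dhcr7*, slope -0.13, p 0.0321, both in limma), while 12.4% of all probes did. Of 13 clock genes, 12 had an unadjusted p under 0.05 against the order, 7 with a positive and 5 with a negative slope, and *Dbp* alone had an adjusted p under 0.05 (0.0461 in limma). The part of the tissue mixture and of the time of day in the members' trend was not tested.

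**Figure D2:**
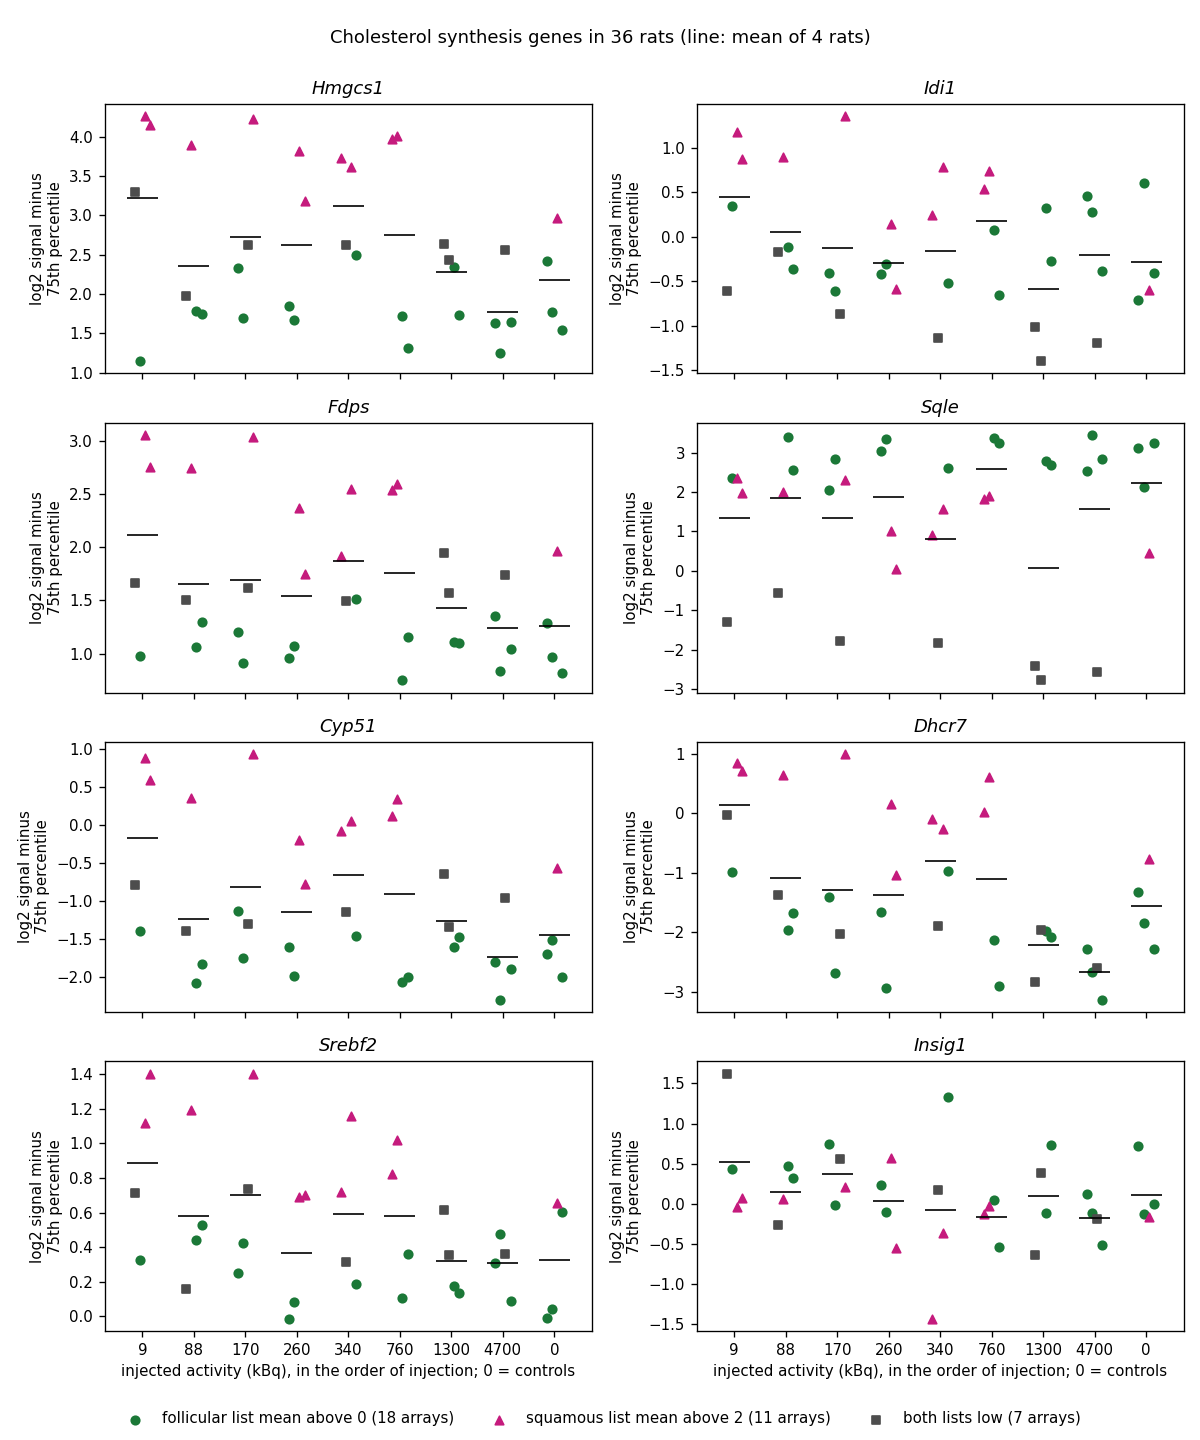
Levels of the 8 members in all 36 rats (y axes, log2 signal minus the 75th percentile of the array) with the groups in the order of injection on the x axis (activity in kBq, 0 for the controls). Lines are means of 4 rats, and colours and shapes show the 3 sets of arrays: the squamous-rich arrays (triangles) hold the highest levels of *Hmgcs1*, *Fdps* and *Cyp51*, and the arrays with both lists low (squares) hold all *Sqle* levels below 0.

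The third question was whether the members varied together between rats of the same group. Each member's level was used in turn as a covariate beside the group means, and limma tested every other probe. Of the 56 ordered pairs of members, 22 were called at an adjusted p under 0.01, and all 22 slopes were positive. *Hmgcs1*, *Fdps*, *Cyp51*, *Dhcr7* and *Srebf2* were all called with each other, and *Idi1* with *Dhcr7* alone. Per log2 unit of *Hmgcs1*, *Fdps* rose by 0.68, *Cyp51* by 0.88, *Dhcr7* by 0.97 and *Srebf2* by 0.32. With *Sqle* or *Insig1* as the covariate, 0 of 7 members were called, and neither was called with any other member. The slope of *Sqle* on *Hmgcs1* was -0.65 (adjusted p 0.156 in limma).

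These counts stand against a wide background. Many genes moved with the members: with *Hmgcs1* as covariate 30.4% of all probes were called (14.8% with a positive slope), with *Fdps* 28.8%, with *Cyp51* 26.9%, with *Srebf2* 18.1% and with *Dhcr7* 15.5%. With *Sqle* 38.0% of all probes were called, with *Idi1* 8.92% and with *Insig1* 0.135%. Those called with a positive slope, as the members were, were 13.7% for *Fdps*, 11.7% for *Cyp51*, 8.94% for *Srebf2*, 7.18% for *Dhcr7*, 5.45% for *Idi1* and 15.5% for *Sqle*. The called members were still near the top of the table for *Hmgcs1*: by the test statistic, positive slopes first, *Cyp51* ranked 17, *Fdps* 31 and *Dhcr7* 218 of 30366 probes. The second *Fdps* probe ranked 8, and *Srebf2* ranked 1102. With *Insig1* as covariate the called probes included the fatty acid synthesis genes *Acly*, *Fasn*, *Scd* and *Acaca* (adjusted p 0.000962 to 0.00732 in limma), and none of the 8 members. Over 36 arrays, the deviations of *Insig1* from the group means had r = 0.73 with those of the adipose list. The part of fat in the dissected tissue was not tested. Within the arrays of the first scan day 6 of the 56 pairs were called (13 arrays of 5 groups), and within the second 19 (17 arrays of 6 groups). The share of all probes called within a day was not computed, so these counts have no background to be read against.

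Within each set of arrays, the picture differed. On the 11 squamous-rich arrays, all 21 pairs among the 7 genes without *Insig1* had positive correlations of the levels, with r from 0.69 to 0.97 and rho from 0.68 to 0.97. *Sqle* belonged to this block there, with r = 0.91 with *Hmgcs1*, 0.97 with *Idi1* and 0.96 with *Fdps*. On the 18 follicle-rich arrays 8 of the 21 pairs were positive, and *Sqle* went against *Cyp51* with r = -0.85. On the 7 arrays with both lists low 11 of the 21 pairs were positive, and the closest pair was *Sqle* with *Idi1* (r = 0.95). *Insig1* was nearest to *Dhcr7* on the follicle-rich arrays (r = 0.81) and on the arrays with both lists low (r = 0.83), and had r from 0.31 to 0.59 with the other members on the squamous-rich ones. These correlations are descriptions over 18, 11 and 7 arrays, whose points share their slides, scans and tissue mixture. They are of levels across groups and not of deviations from the group means, so differences between groups enter them. The same correlations were not computed for all probes, so the counts of positive pairs have no background.

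**Figure D3:**
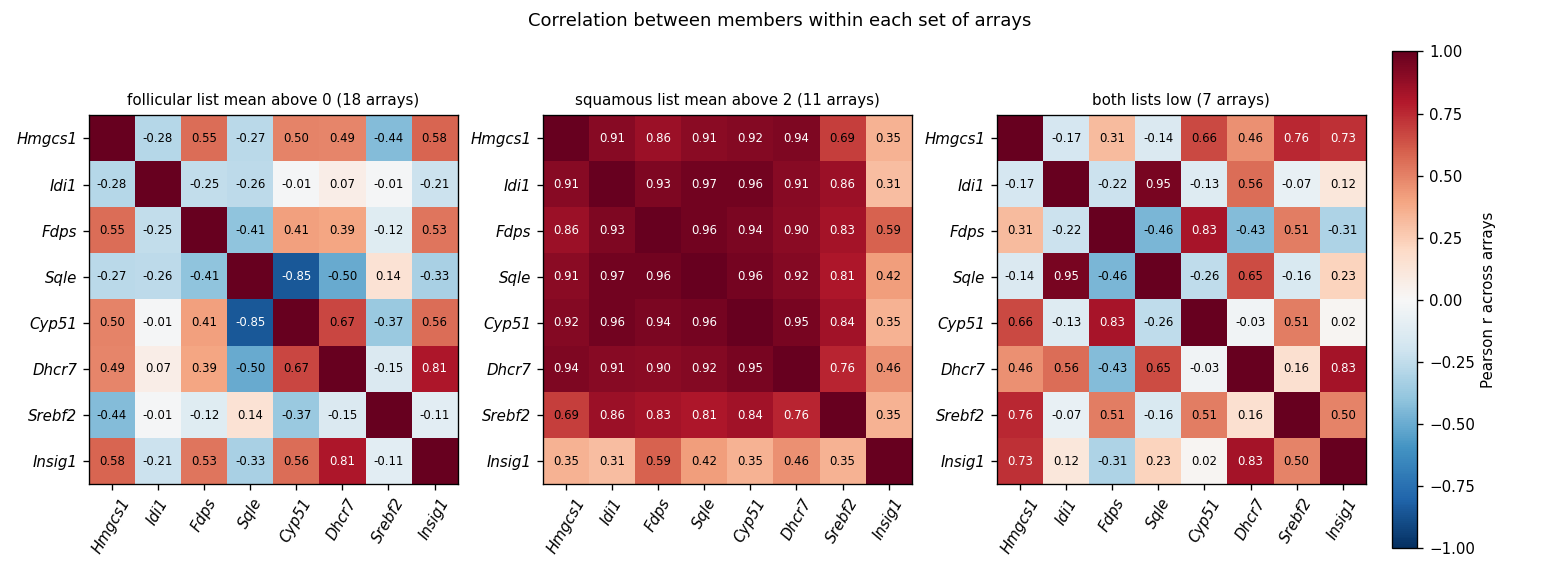
Pearson correlation between the levels of each pair of members across the 18 follicle-rich arrays (left), the 11 squamous-rich arrays (middle) and the 7 arrays with both lists low (right), with the colour scale from -1 to 1. On the squamous-rich arrays all 21 pairs among the 7 genes other than *Insig1* are at 0.69 or above, while *Sqle* and *Cyp51* are at -0.85 on the follicle-rich ones. Groups are mixed within each set, and the share of all probes was not computed.

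The levels themselves followed the sets. *Hmgcs1* was between 2.97 and 4.27 on the squamous-rich arrays (median 3.90), between 1.15 and 2.49 on the follicle-rich ones (median 1.73), and between 1.98 and 3.29 where both lists were low (median 2.62). Between the first and the second of these sets the ranges did not overlap for *Hmgcs1*, *Fdps*, *Cyp51* and *Srebf2*, which were higher on the squamous-rich arrays: 4 of 8 genes, against 3.35% of all probes. *Dhcr7* overlapped there by a narrow margin, with -1.04 as its lowest squamous-rich level and -0.97 as its highest follicle-rich level. *Sqle* was between 2.05 and 3.45 on the follicle-rich arrays (median 2.84) and between 0.05 and 2.36 on the squamous-rich ones (median 1.83). Where both lists were low it was between -2.78 and -0.55 (median -1.83), the only member that did not overlap with the follicle-rich arrays, against 6.65% of all probes lower there. *Insig1* had medians of 0.08, -0.04 and 0.17 in the 3 sets, with wide overlap.

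A limma fit with the group means and all 5 tissue lists together gave each gene a slope on each list. On the squamous list 7 of the 8 genes, all but *Insig1*, had a positive slope with an adjusted p under 0.01, where 7.91% of all probes had one. The slopes were highest for *Sqle* (0.25 ± 0.04 per log2 unit of the list mean, SE) and *Dhcr7* (0.23 ± 0.03), followed by *Hmgcs1* (0.15 ± 0.02), *Idi1* (0.14 ± 0.02), *Cyp51* (0.13 ± 0.02), *Fdps* (0.09 ± 0.02) and *Srebf2* (0.05 ± 0.01). That of *Insig1* was -0.002 ± 0.025. Each slope is given the other lists in the same fit. Without them, deviations of *Sqle* from the group means had r = 0.12 with those of the squamous list over 36 arrays. For the other called genes this r was between 0.74 (*Idi1*) and 0.84 (*Cyp51*). On the follicular list *Sqle* had a positive slope of 0.68 ± 0.07 and *Cyp51* a negative one of -0.14 ± 0.04, the 2 of 8 genes that were called, against 24.0% of all probes. On the adipose list 0 of 8 genes were called in limma, against 0.217% of all probes. The unadjusted p was 0.00226 for *Dhcr7* (slope 0.42 ± 0.12) and 0.00702 for *Insig1* (0.33 ± 0.11), the 2 of 8 genes under 0.05. On the slow muscle and the Schwann cell list 0 of 8 genes were called in limma, against 1.33% and 0.0560% of all probes. The members were not among the markers of any list. Within the sets, the relation to the squamous list differed. Over the 11 squamous-rich arrays *Dhcr7*, *Hmgcs1* and *Sqle* had r = 0.97, 0.97 and 0.95 with that list. Over the 18 follicle-rich arrays their r with it was 0.04, 0.03 and 0.21. Over the 7 arrays with both lists low it was 0.18, -0.78 and 0.65 (rho 0.36, -0.86 and 0.18). The squamous list ran only from -5.57 to -3.95 on those arrays. With the follicular list *Sqle* had r = 0.94 over the 18 follicle-rich arrays.

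**Figure D4:**
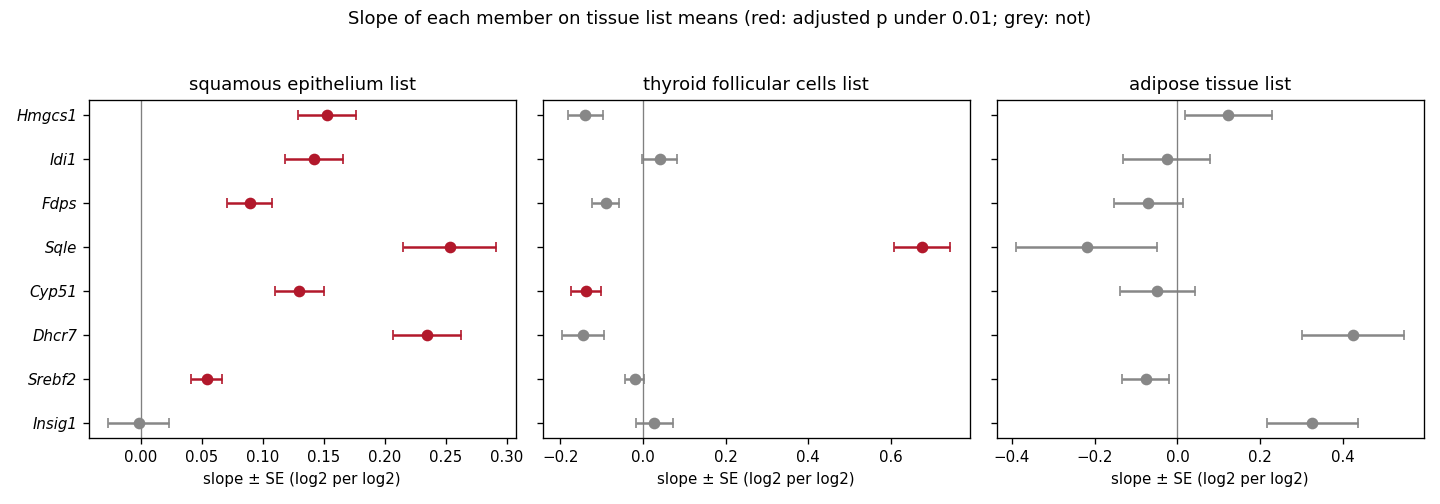
Slope of each member (x axes, change in log2 level per log2 unit of the list mean, bars are SE) on the squamous, follicular and adipose marker lists, from 1 limma fit with group means and 5 lists. Red marks an adjusted p under 0.01: 7 of 8 genes on the squamous list, *Sqle* and *Cyp51* on the follicular list and 0 on the adipose list.

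**Figure D5:**
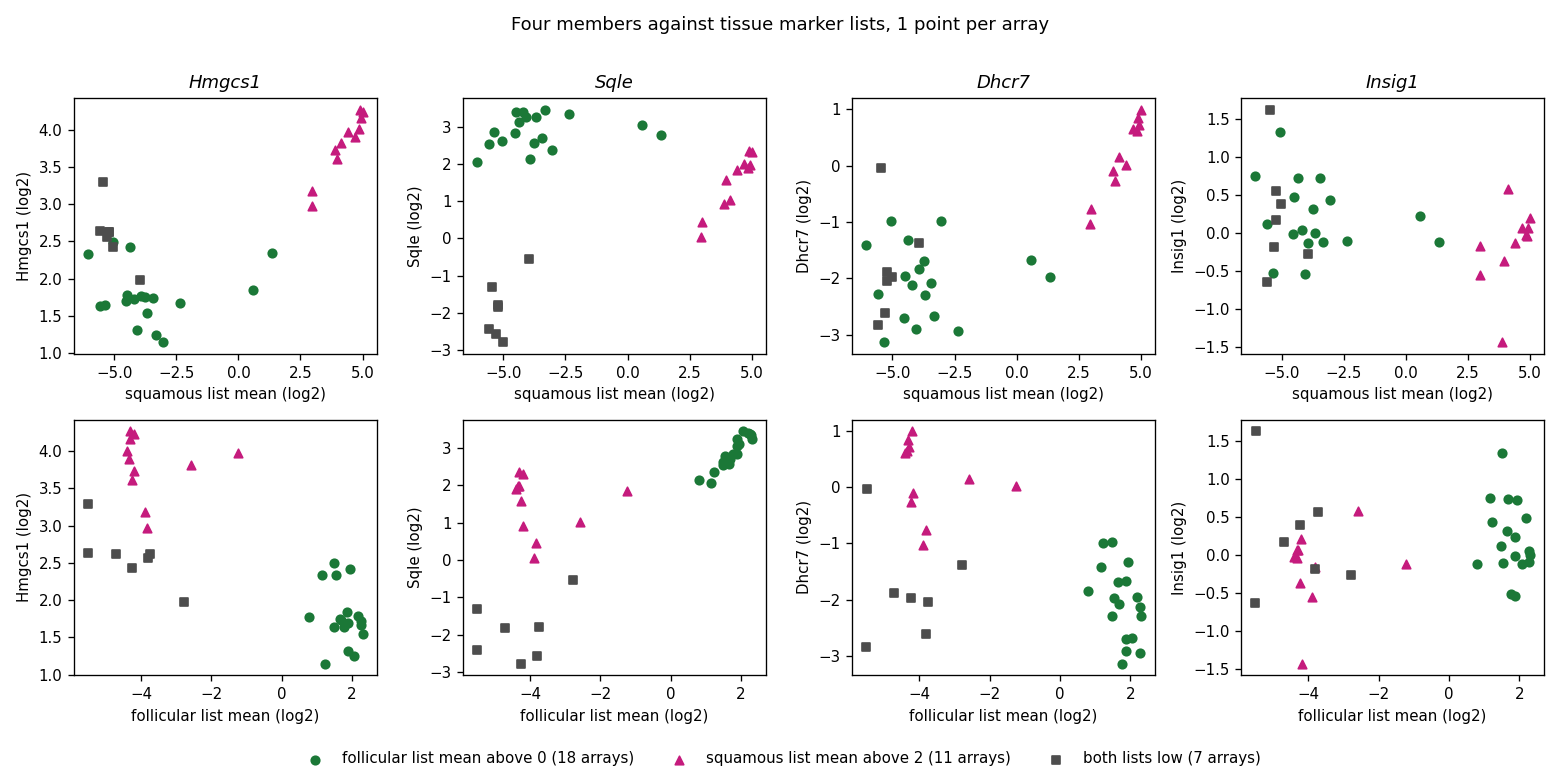
Levels of *Hmgcs1*, *Sqle*, *Dhcr7* and *Insig1* (y axes, log2) against the mean of the squamous list (upper row) and of the follicular list (lower row) on each of the 36 arrays, coloured by set. *Sqle* is between 2.05 and 3.45 on the follicle-rich arrays and climbs from 0.05 to 2.36 along the squamous list on the squamous-rich ones, while the *Insig1* levels of the 3 sets overlap.

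With the 5 lists in the covariation fit, 0 of the 56 ordered pairs were called at an adjusted p under 0.01 in limma, where 2.29% of all probes were with *Sqle*, 0.0198% with *Cyp51*, 0.0165% with *Hmgcs1*, 0.00329% each with *Fdps* and *Srebf2*, and 0% with *Idi1*, *Insig1* and *Dhcr7*. All 56 slopes were then positive, those of *Sqle* and *Insig1* included, where 40.0% to 58.6% of all probes had a positive slope, and 26 had an unadjusted p under 0.05. With *Dhcr7* as covariate these were 6 of 7 members, against 4.26% of all probes with a positive slope. They were 4 of 7 each with *Fdps* (6.36%), *Cyp51* (4.73%) and *Insig1* (3.53%) and 3 of 7 each with *Hmgcs1* (4.71%) and *Idi1* (2.16%). With *Sqle* (11.5%) and *Srebf2* (11.9%) they were 1 of 7 each. *Insig1* and *Dhcr7*, which did not vary together in the fit without the lists (slope of *Dhcr7* -0.04, adjusted p 0.975 in limma), had a slope of 0.80 with them (adjusted p 0.183). The ordered pairs share probes and arrays and are not independent.

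Other genes of the pathway were taken from a list by name. Of 14 further enzymes of cholesterol synthesis, 0 were regulated in any group, and 1 was higher at 9 kBq at an unadjusted p under 0.05, *Mvd*, the mevalonate diphosphate decarboxylase (log2 ratio 1.45). Against the order of injection 5 of the 14 had a negative slope with an unadjusted p under 0.05 (6.16% of all probes) and 0 a positive one, among them *Mvd* (slope -0.12), *Lss* (-0.11), *Msmo1* (-0.14) and *Hsd17b7* (-0.11). With the squamous list 9 of the 14 had a called slope, all positive, against 7.91% of all probes. With *Hmgcs1* as covariate 7 were called with a positive slope (14.8% of all probes), among them *Hsd17b7*, *Nsdhl*, *Mvd* and *Msmo1*, and 1 with a negative one (15.6%), *Tm7sf2*. With *Sqle* as covariate 5 were positive (15.5% of all probes), among them *Tm7sf2*, *Acat2* and *Sc5d*, and 2 were negative (22.5%), among them *Fdft1*, which makes squalene. *Fdft1* and *Sqle* code for consecutive enzymes, and *Fdft1* went down as *Sqle* went up. As 2 of 14 is no more than the share of all probes with a negative slope, this says nothing particular to the pathway.

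The counts of regulators and transporters of sterols that follow are to be read against all probes, of which 14.8% had a called positive and 15.6% a called negative slope on *Hmgcs1*, and 15.5% and 22.5% on *Sqle*. Lists of 4 to 9 genes with counts near these shares say nothing particular to the list. Of 4 measured genes of SREBP control, *Scap*, the escort of SREBP, was called with a positive slope on *Hmgcs1* and *Mbtps1*, a protease that cleaves SREBP, with a negative one. Of 8 genes of uptake and transport, 2 rose with *Hmgcs1*, among them *Npc1*, and *Npc2* and *Scarb1* fell. *Lrp2*, the endocytic receptor megalin, and *Npc2* rose with *Sqle*, and *Npc1* fell. Of 8 genes of efflux, storage and LXR signalling, 4 fell with *Hmgcs1* (*Abca1*, *Abcg1*, *Nr1h2* and *Soat1*) and 0 rose. Of 9 genes of fatty acid synthesis, 0 rose and 3 fell with *Hmgcs1*, while 4 rose with *Insig1*, against 0.135% of all probes. On the adipose list 4 of the 9 had a called positive slope, against 0.217% of all probes. Of 5 genes of the isoprenoid branches, *Dhdds* fell with *Hmgcs1* and rose with *Sqle*, and *Coq2* fell with *Sqle*. Of 13 clock genes, 1 rose and 0 fell with *Hmgcs1*, and 2 rose and 8 fell with *Sqle*. Among all other named genes, those most like the mean of the 8 members over 36 arrays, by the correlation of deviations from the group means, were *Gpld1*, *Ephx3*, *Gja1*, *Zbtb7c*, *Flvcr2*, *Pard6g*, *Bcl3*, *Msmo1*, *Ces2h* and *Car13*, with r from 0.92 to 0.94. The same 10 genes had r from 0.89 to 0.96 with the squamous list.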

How the data were processed

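The authors hybridized Cy3-labelled RNA from each thyroid to 1 Agilent rat array and deposited the scanner output of Feature Extraction (10.7.3.1, per the file headers), whose processed signal is an intensity already corrected for background. The authors also deposited a table of linear intensity values, quantile normalized between arrays, which served as an alternative after log2; Partek is named in the submitters' processing notes. Here, log2 processed signals were scaled to the 75th percentile of each array, control probes and outlier spots were left out, spots of a probe were averaged, and 30367 probes were kept with no filter on dim probes. That percentile lay between 1564 and 4288 on the linear scale, and 60.1% to 88.5% of probes were well above background. The number of arrays, 4 per group, limits the precision. Group comparisons and covariation were tested against the spread between these rats, and the order of injection against the scatter of the group means.

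All 36 arrays entered 1 limma fit (3.58.1, R 4.3.3) with group means, and p-values were adjusted by Benjamini-Hochberg over all probes. Regulated transcripts had an adjusted p under 0.01 together with a change of 1.5-fold or more, which are the limits of the study. The study used other software (Nexus Expression) and reported regulated transcripts in every irradiated group at these limits. The reason for the difference was not tested. The trend with injection order was fitted in limma to the 9 group means, and covariation by adding a member to the group means. All tests were two-sided. For *Fdps* the probe with the higher mean level stands for the gene unless both are named. The members were named throughout, further genes came from lists by name, and the 10 genes most like the members' mean were named by correlation. The members and lists were chosen with earlier results of these data known. The scripts were tested on simulated data. Alternatives covered scaling, background correction, dim probes, array weights, slide and scan day, the samples in the fit and each rat left out. The arrays lay on 5 slides and were scanned on 2 days. Tissue lists as covariates of the group comparisons and of the order, the slopes on each list and the sets of arrays were added after the data had been seen. Some genes of the lists are not reported here by name.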

Additional observations from a re-analysis of the deposited data

Results flagged for a closer look

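Of 72 sets of 4 rats (8 members in 9 groups), 5 held a rat that stood apart from the other 3 by Dixon's criterion, and chance gives about 1 in 20. *Hmgcs1* was at 3.90 in rat 2 of the 88 kBq group, where the next rat was at 1.98, and the squamous list of that array was at 4.68. *Sqle* was at -1.31 in rat 1 of the 9 kBq group (next rat 1.97), at -1.79 in rat 3 of the 170 kBq group (next 2.05) and at -2.57 in rat 3 of the 4700 kBq group (next 2.54). The follicular lists of these 3 arrays were at -5.50, -3.73 and -3.80. *Dhcr7* was at -2.83 in rat 1 of the 1300 kBq group, where the other rats were between -2.08 and -1.97. The part of the tissue mixture in these values was not tested.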

How the results depend on the processing

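No member was regulated against the controls under 11 of the 12 alternatives or without any 1 rat. The exception was *Srebf2* at 9 kBq with array weights (log2 ratio 1.01, adjusted p 0.00965 in limma). Those weights ran from 0.252 to 4.03, and the iteration that sets them did not converge. Among all probes the 0 regulated transcripts became 5 with quantile normalization, 4 with normexp, 5 with the authors' value table, 4 with the filter on dim probes (20885 probes), 390 with array weights and 5 with tissue lists, and 0 to 6 when 1 rat was left out. The 1 member comparison with an unadjusted p under 0.05 became 2 with normexp, 2 in fits of 2 groups, 20 with array weights and 3 with tissue lists, and 0 to 6 when 1 rat was left out. The 6 probes that followed the order became 2 by activity rank, 1 without the first and last group and 2 with tissue lists, and 1 to 8 when 1 rat was left out. The slope of *Sqle* on the order turned negative there, at -0.093, -0.096 and -0.070. The 22 covarying pairs became 0 with tissue lists, where the slopes on *Hmgcs1* of *Sqle* and *Insig1* turned positive, at 0.66 and 0.41, and were 20 to 25 when 1 rat was left out. The 7 genes on the squamous list were 5 with median centring and 6 to 7 without 1 rat. The 2 on the follicular list were 1 with the authors' table and 1 to 5 without 1 rat. They were 1 without rat 2 of the 170 kBq, rat 2 or rat 3 of the 260 kBq, or rat 3 of the 1300 kBq group. They were 5 without rat 4 of the 340 kBq group. The cause of these changes was not tested.

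The replicate numbers did not pair the rats: deviations of rats with the same number in different groups had a median correlation of -0.03, as did those with different numbers. With a replicate block 22 pairs of members covaried, 0 members were regulated and 1 comparison had an unadjusted p under 0.05, as without it. Slide or scan day as a block gave the same 3 counts. The files hold no mean spot signal, so normexp was run on median signals.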
